A study of Mus musculus and Rattus norvegicus with 18 samples.

Results

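The change in translational efficiency (TE) between Mettl1 conditional knockout (cKO) and control (Ctrl) mouse hearts was measured for 9468 genes of the 17866 genes that appear in both the RNA-seq and the Ribo-seq tables of the hearts. A gene was measured when it had at least 50 counts in every one of the 8 heart libraries, and its footprints were those of its longest open reading frame. TE is the number of ribosome footprints relative to the amount of RNA of the same gene, and its change is the log2 footprint change minus the log2 RNA change, cKO over Ctrl, so that a positive value means more footprints per RNA in cKO hearts. The hearts came from 4-week-old C57BL/6 mice. cKO carried the genotype that the labels write M1cKO and were compared with hearts labelled Ctrl. Each genotype had 2 RNA libraries and 2 footprint libraries, and the labels name no other treatment. The labels name neither the Cre driver nor the cells in which Mettl1 was deleted, and they do not say whether the libraries came from separate animals, so each p-value reflects no more than the spread among these libraries, which may be technical. The 9468 genes held 91.5% of the RNA counts and 98.5% of the footprints on longest frames. The threshold passed 189 genes whose lowest count was between 50 and 54, and it left out 186 genes whose lowest count was between 45 and 49. A further 476 genes reached 50 counts in all 4 cKO libraries but not in all 4 Ctrl libraries, and 83 genes the reverse, and none of these was measured.

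Mettl1 carries the active site of a methyltransferase that puts N7-methylguanosine on some tRNAs, and it works together with Wdr4. The modification lies in the variable loop and protects these tRNAs from decay, and its loss in other mammalian cells is known to slow ribosomes at the codons those tRNAs read. Ribo-seq sequences the RNA stretches that ribosomes cover, so comparing it with RNA-seq of the same tissue separates a change in how much mRNA is present from a change in how densely it is covered by ribosomes. Cardiomyocyte maturation, ketogenesis and control of translation are the subjects in the title of the series.

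Mettl1 itself was below the count threshold. Its RNA had 43 and 39 counts in the cKO libraries, against 67 and 59 in the Ctrl libraries, or 2.49 and 2.51 CPM (counts per 1e6 of the scaled library total) in cKO against 4.28 and 3.71 in Ctrl. Its footprints were 89 and 77 counts in cKO, against 151 and 218 in Ctrl, or 2.51 and 2.51 against 7.04 and 7.45 CPM. Both cKO libraries were below both Ctrl libraries in each assay, with a ratio of 0.627 for RNA and 0.347 for footprints. Heart tissue was sequenced in bulk, so fewer cells of a type and less RNA per cell cannot be told apart. Wdr4 was measured, with 9.74 and 8.18 RNA CPM in cKO against 7.98 and 7.22 in Ctrl, and 6.13 and 5.61 footprint CPM in cKO against 4.99 and 3.86 in Ctrl. Its TE change was 0.18 (SE 0.25, 95% interval −0.34 to 0.71, adjusted p = 0.85).

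Measured genes held between 13.77 and 15.42 M counts per library in RNA-seq and between 24.2 and 38.31 M in Ribo-seq, where M is 1e6. The tissue label matched the markers: the cardiomyocyte marker genes summed to 49900 and 50100 RNA CPM in the cKO libraries and to between 55800 and 56800 in the Ctrl libraries. Lymphocyte markers summed to at most 3.94 CPM in cKO and 4.08 in Ctrl, and none of them was measured for TE. Endothelial markers summed to between 2210 and 2310 CPM in cKO against 2520 in both Ctrl libraries, smooth muscle and pericyte markers to 1330 and 1340 against 1500 and 1510, and erythroid markers to 1590 and 2500 against 1440 and 1570. Macrophage markers summed to 797 and 878 CPM in cKO against 749 and 775 in Ctrl.

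In cKO hearts 5 genes had a higher TE (0.0528% of those measured) and 5 a lower TE (0.0528%) at an adjusted p of 0.05 or less. The genes with a higher TE were Ivns1abp, Eef1a1, Ucp2, Tubb2a and Ywhaz, and those with a lower TE were Rpl32, Phb, Polr2c, Tpm1 and Myh7. The median TE change over all 9468 genes was −0.014, and from the 5th to the 95th percentile the changes ran from −0.35 to 0.34. The median SE of a gene's TE change was 0.154. For 6593 genes (69.6%) the 95% interval of the TE change lay within 1.5-fold in both directions, and 11 genes had a change of at least 1 on the log2 scale. At an unadjusted p under 0.05, 400 genes (4.22%) were higher and 553 genes (5.84%) lower in cKO. The log2 footprint-to-RNA ratio of every cKO pairing of an RNA and a footprint library was above that of every Ctrl pairing for 983 genes (10.4%) and below it for 1346 genes (14.2%). Such separation was therefore common, and the 10 genes past the adjusted threshold all showed it. Of these 10 genes, 8 lay in the uppermost of 4 equal bins by mean count, where the median SE was 0.108, against 0.236 in the lowest bin.

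Most genes whose RNA changed also changed in footprints in the same direction, while most genes whose footprints changed did not pass the test in RNA. In the same fit, RNA was higher in cKO for 728 genes (7.69%) and lower for 522 (5.51%), and footprints were higher for 1250 genes (13.2%) and lower for 1257 (13.3%). Both assays passed the threshold in the same direction for 982 genes and in opposite directions for 2 genes. Of the 1250 genes whose RNA changed, 980 had a TE interval within 1.5-fold in both directions. Of the 2507 genes whose footprints changed, 1523 were not called in RNA, and 1719 had a TE interval within 1.5-fold in both directions. Nppa, the atrial natriuretic peptide and a marker of cardiac stress, is an example chosen after its values were seen. Its RNA was 921 and 684 CPM in cKO against 70.4 and 61.0 in Ctrl, its footprints were 5390 and 4169 CPM against 357 and 416, and its TE change was 0.02 (95% interval −0.39 to 0.42). The 2 genes that moved in opposite directions were Ptp4a2, a phosphatase, and Tssc4, a splicing-related gene. Ptp4a2 RNA fell (−0.26, adjusted p = 0.03) while its footprints rose (0.45, adjusted p = 0.0132), and Tssc4 RNA rose (0.58, adjusted p = 0.0299) while its footprints fell (−0.51, adjusted p = 0.0259). The direction of Ptp4a2 depended on the frame counted, which need not be a coding sequence, as described with its values.

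**Figure D1:**
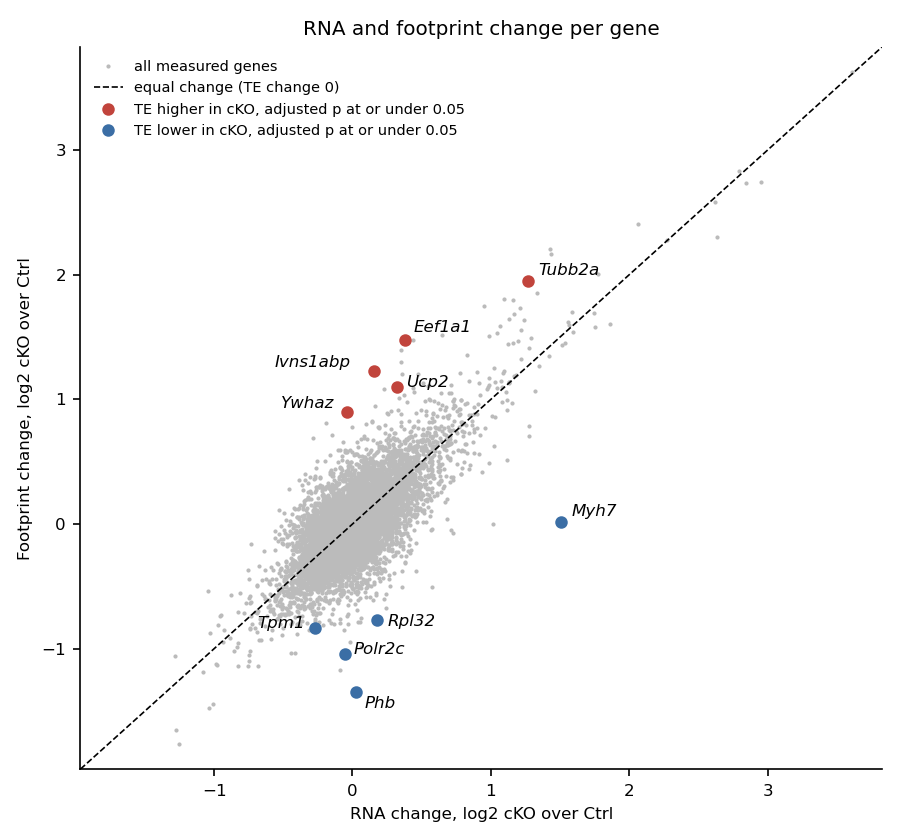
Each point is a gene, with its RNA change on the horizontal axis and its footprint change on the vertical axis, both log2 cKO over Ctrl, and the dashed line marks equal change. Most genes lie along the line, Eef1a1, Ivns1abp, Ucp2, Ywhaz and Tubb2a lie above it, and Myh7 lies far to the right of it with a footprint change of 0.01.

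Among the genes with a higher TE, Eef1a1, which encodes the main elongation factor that brings aminoacyl-tRNA to the ribosome, had 2357 and 2183 RNA CPM in cKO against 1792 and 1693 in Ctrl. Its footprints were 280 and 229 CPM in cKO against 82.4 and 101 in Ctrl. All cKO libraries were above all Ctrl libraries in both assays. RNA rose by 0.38 (adjusted p = 0.0144), footprints rose by 1.47, and the TE change was 1.09 (SE 0.14, 95% interval 0.80 to 1.38, adjusted p = 0.00369). Eef1a1 (chr9:78478453-78481724, GRCm38.p6) has 2 annotated pseudogenes, so its counts are uncertain wherever reads could match a copy. It was past the threshold in all 20 alternative fits.

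Ivns1abp, a kelch-domain protein that binds the influenza NS1 protein and is linked to splicing (chr1:151344486-151364445), had 720 and 746 RNA CPM in cKO against 677 and 639 in Ctrl. Its footprints were 363 and 317 CPM in cKO against 151 and 140 in Ctrl. The RNA levels were close and did not pass the test (0.16, adjusted p = 0.201), and both cKO footprint libraries were above both Ctrl libraries. The TE change was 1.07 (SE 0.11, 95% interval 0.84 to 1.30, adjusted p = 3.12e-04), the smallest p of the 9468 genes. The Ivns1abp locus overlaps the pseudogene Gm10138, so its counts are uncertain where reads could match both.

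Ucp2, a carrier of the inner mitochondrial membrane (chr7:100493337-100499629), had 229 and 230 RNA CPM in cKO against 189 and 178 in Ctrl, and 106 and 102 footprint CPM in cKO against 44.3 and 52.4 in Ctrl. Its RNA rose by 0.32 (adjusted p = 0.0108) and its TE by 0.78 (SE 0.11, adjusted p = 0.0114). Ywhaz, the 14-3-3 zeta adaptor protein (chr15:36770261-36802984), had 120 and 118 RNA CPM in cKO against 128 and 117 in Ctrl. Its footprints were 14.3 and 13.0 CPM in cKO against 8.81 and 6.12 in Ctrl, and its TE rose by 0.94 (SE 0.17, adjusted p = 0.0474). The RNA libraries of Ywhaz overlapped between the genotypes, while its footprint libraries did not. The Ywhaz locus overlaps the lncRNA Gm41298. Tubb2a, a beta-tubulin (chr13:34074278-34078008), rose in both assays. It had 76.3 and 82.8 RNA CPM in cKO against 32.4 and 33.7 in Ctrl, and 192 and 167 footprint CPM in cKO against 45.3 and 47.6 in Ctrl. RNA rose by 1.27 and footprints by 1.95, which left a TE change of 0.68 (SE 0.12, adjusted p = 0.0474). Other tubulin genes and 2 annotated pseudogenes share sequence with Tubb2a, so its counts are uncertain.

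Among the genes with a lower TE, Myh7 had the largest change. It encodes the slow beta-myosin heavy chain, the form of the fetal and the stressed mouse ventricle (chr14:54970684-54994626). Its RNA was 257 and 232 CPM in cKO against 96.6 and 75.8 in Ctrl, a rise of 1.51 (adjusted p = 9.83e-05). Its footprints were 812 and 711 CPM in cKO against 980 and 529 in Ctrl, so that both cKO libraries lay between the 2 Ctrl libraries, and the footprint change was 0.01 (adjusted p = 0.966). The TE change was −1.49 (SE 0.27, 95% interval −2.06 to −0.92, adjusted p = 0.0474). Myh7 was past the threshold in 11 of 20 alternative fits and lost its call in DESeq2 (adjusted p = 0.135), in limma-voom (0.0942), with at least 200 counts (0.109) and in 6 of the 8 fits without 1 library, and over all 20 the adjusted p ran from 3.28e-06 to 0.319. Across the fits without 1 library the TE change of Myh7 ran from −1.85 to −0.97. The Myh7 locus overlaps the lncRNAs Mhrt and Gm31251 and the miRNA Mir208b. The sources used here do not give the strand setting of the counting, so RNA reads from the other strand cannot be told apart, and Myh7 shares long stretches of sequence with its neighbour Myh6. Myh6, the fast alpha-myosin heavy chain of the adult mouse heart, had 19655 and 20225 RNA CPM in cKO against 22236 and 21891 in Ctrl, and 41173 and 41187 footprint CPM in cKO against 55111 and 48720 in Ctrl. Its TE change of −0.19 did not pass the test (adjusted p = 0.566).

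Phb, which encodes prohibitin, a scaffold of the inner mitochondrial membrane (chr11:95666957-95680773), had 168 and 159 RNA CPM in cKO against 166 and 155 in Ctrl. Its footprints were 1.55 and 2.97 CPM in cKO against 5.55 and 5.74 in Ctrl. The RNA libraries overlapped and the footprint libraries did not, and TE fell by 1.37 on the log2 scale (SE 0.22, adjusted p = 0.0302). Those footprints were 55 and 91 counts in cKO and 119 and 168 in Ctrl, which places Phb close to the threshold of 50. Phb2, the partner of prohibitin in the same ring complex, had 161 and 176 RNA CPM in cKO against 170 and 171 in Ctrl, and 143 and 146 footprint CPM in cKO against 200 and 206 in Ctrl. Its TE change was −0.47 (adjusted p = 0.0851).

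Rpl32, a protein of the large ribosomal subunit (chr6:115805514-115808743), had 199 and 153 RNA CPM in cKO against 159 and 152 in Ctrl, and 22.6 and 22.4 footprint CPM in cKO against 36.5 and 40.0 in Ctrl. Its TE fell by 0.95 (SE 0.15, adjusted p = 0.0205). Rpl32 overlaps Cand2 and Snora7a and has an annotated pseudogene, so its counts are uncertain. Polr2c, a subunit of RNA polymerase II (chr8:94857450-94864242), had 48.1 and 49.4 RNA CPM in cKO against 52.1 and 49.1 in Ctrl, and 3.98 and 5.45 footprint CPM in cKO against 9.69 and 9.57 in Ctrl, a TE change of −0.98 (SE 0.17, adjusted p = 0.0474). Polr2c overlaps Dok4. Tpm1, the main cardiac tropomyosin (chr9:67022590-67049672), was the most abundant of the 10 in RNA, with 8443 and 7997 RNA CPM in cKO against 9921 and 9869 in Ctrl. Its footprints were 159 and 165 CPM in cKO against 271 and 306 in Ctrl. RNA fell by 0.27 (adjusted p = 0.019), footprints fell by 0.84, and the TE change was −0.57 (SE 0.10, adjusted p = 0.0474).

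**Figure D2:**
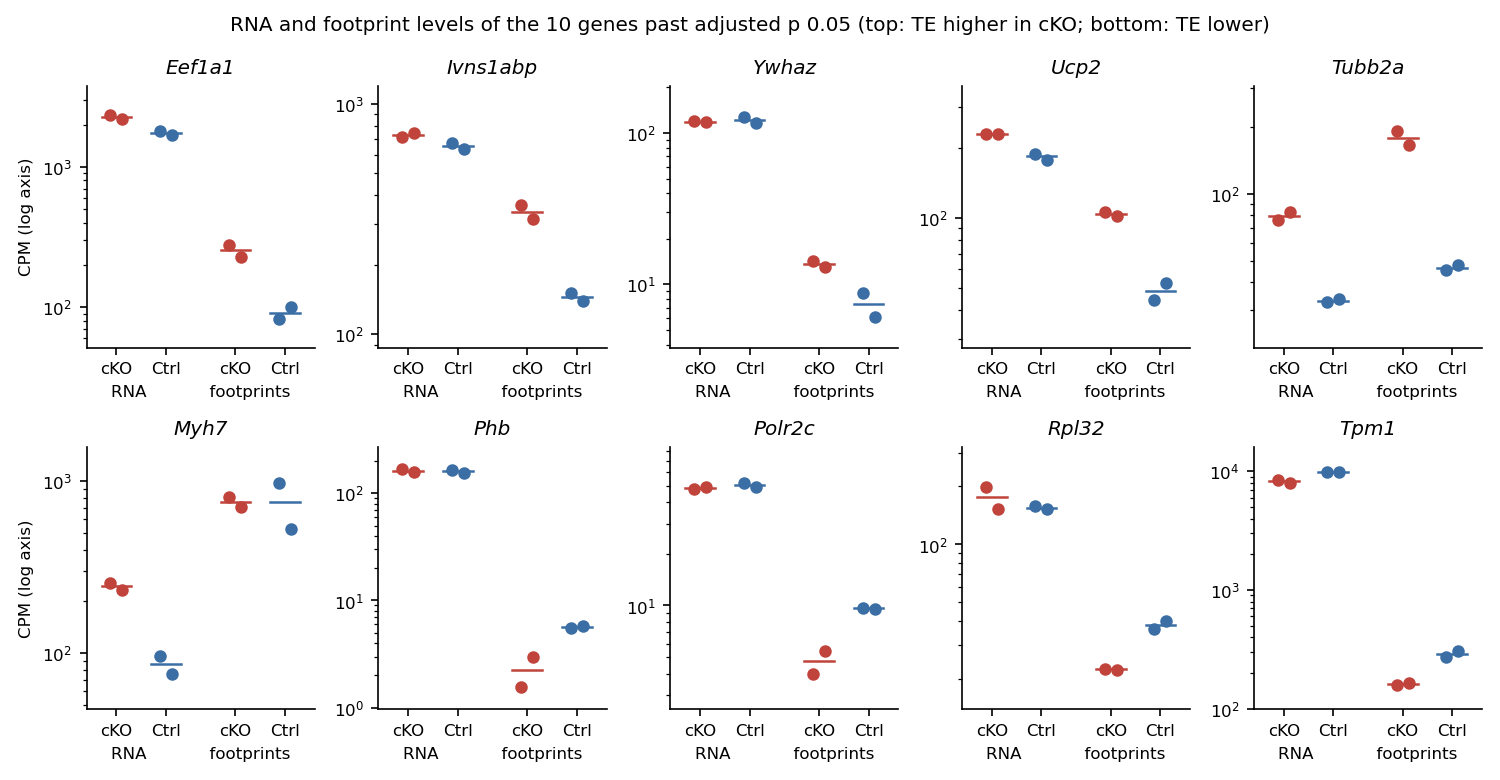
RNA and footprint levels in CPM on log axes for the 10 genes past the threshold, cKO in red and Ctrl in blue, with a point for each library and a bar at the mean of 2. In the upper row footprints of cKO are above those of Ctrl by more than the RNA is, and in the lower row footprints are lower or, for Myh7, level while RNA is higher.

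No call other than Eef1a1 held in every alternative fit, and Ivns1abp lost its call in 1 of 20. DESeq2 called 9 of the 10, limma-voom 5, and a minimum of 200 counts left 4. At that minimum Phb, Polr2c and Ywhaz were not tested, as each had a library with fewer than 200 footprint counts. Without cKO RNA replicate 1, Ctrl RNA replicate 1 or cKO Ribo replicate 1, 2 genes were called in each case, both among the 10. Without cKO RNA replicate 2 or Ctrl RNA replicate 2 there were 3 calls, all among the 10. Without cKO Ribo replicate 2, Ctrl Ribo replicate 1 or Ctrl Ribo replicate 2 there were 14, 19 and 8 calls, of which 6, 8 and 4 were among the 10.

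The frame that was counted mattered for Ivns1abp, Ucp2 and Phb. The Ribo-seq table lists open reading frames, and Ivns1abp and Ucp2 have a short frame that ends before the start of the longest one. For Ivns1abp the upstream frame of 24 codons had 98.6 and 115 footprint CPM in cKO against 161 and 109 in Ctrl, while the longest frame of 642 codons had 363 and 317 against 151 and 140. For Ucp2 the upstream frame of 36 codons had 64.1 and 78.1 CPM in cKO against 79.0 and 70.3 in Ctrl, while the longest frame of 309 codons had 106 and 102 against 44.3 and 52.4. The genotypes overlapped on the upstream frame of both genes and were apart on the longest frame. When all frames of a gene were summed, the TE change was 0.53 for Ivns1abp (adjusted p = 0.175) and 0.20 for Ucp2 (adjusted p = 0.528). Ucp2 has a second, weakly covered upstream frame of 32 codons, with 1.89 and 1.73 CPM in cKO against 1.17 and 1.37 in Ctrl, which starts with GTG in RefSeq's GRCm38.p6 sequence. Phb has an upstream frame of 18 codons that starts with CTG, with 3.16 and 2.22 CPM in cKO against 2.28 and 2.87 in Ctrl. With its frames summed, the TE change of Phb was −0.758 (adjusted p = 0.0437), against −1.37 on the longest frame. Tpm1 has another listed frame of 284 codons with the same start, and the one with more footprints was counted. The other had 20 and 21 footprint counts in cKO against 19 and 13 in Ctrl. The RNA counts of Tpm1 are of the whole gene.

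**Figure D3:**
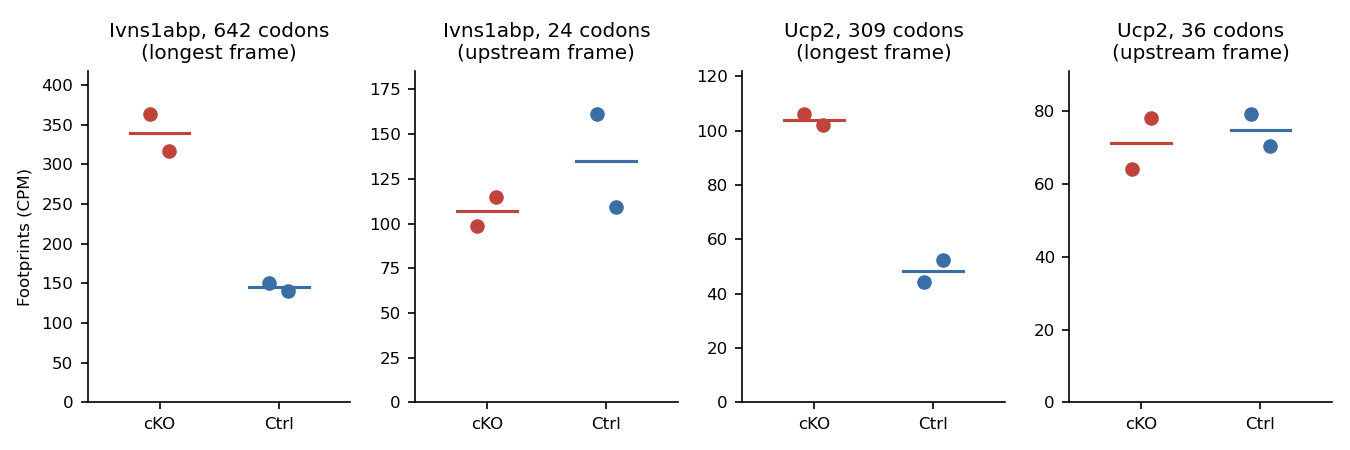
Footprints in CPM on the longest and on an upstream frame of Ivns1abp and of Ucp2, with a point for each library and a bar at the mean, cKO left and Ctrl right. The longest frames of both genes are higher in both cKO libraries, and on the upstream frames the genotypes overlap.

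Over all measured genes, 573 had an upstream frame with at least 50 counts in every Ribo library, 638 frames in all, with a median of 27 codons. Footprints on the upstream frame relative to the longest frame changed by a median of 0.08 (log2, cKO minus Ctrl), with a 5th percentile of −0.61 and a 95th of 0.68. The 2 cKO libraries were above both Ctrl libraries in this ratio for 183 of the 638 frames (28.7%) and below both for 126 (19.7%). The change of −1.54 for Ivns1abp was the lowest of the 638, and the −1.18 for Ucp2 was the third lowest, tied with the 48-codon frame of Slmap. These genes were picked for their TE on the longest frame, which enters this ratio, so their place in the order is a description. At the other end, 2 upstream frames of Eif4g2 had changes of 1.14 and 0.97.

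The genes past the threshold had few footprints for their RNA. The ratio of footprint CPM to RNA CPM in Ctrl had a median of 0.99 over all measured genes and a 10th percentile of 0.309. Of the 10 genes, 8 were at or below that 10th percentile, all but Tubb2a (1.40) and Myh7 (8.75). The ratio in Ctrl was 0.0292 for Tpm1, 0.0352 for Phb, 0.0525 for Eef1a1, 0.0611 for Ywhaz, 0.19 for Polr2c, 0.221 for Ivns1abp, 0.246 for Rpl32 and 0.264 for Ucp2. Of the 953 genes at an unadjusted p under 0.05, 172 (18.1%) lay at or below this 10th percentile. How the authors assigned a footprint that matches several frames or genes is not stated in the labels or files. Atp2a2, the calcium pump of the cardiac sarcoplasmic reticulum, was another gene with a low ratio. It had 10309 and 10538 RNA CPM in cKO against 13240 and 13329 in Ctrl, but 6.46 and 5.51 footprint CPM on its longest frame in cKO against 8.30 and 10.5 in Ctrl. Its frame of 998 codons, which has the same start, had 0 and 12 footprint counts in cKO and 2 and 4 in Ctrl. Ratios are compared between genotypes within a gene and not read as rates of translation, and the part of frame assignment in the 8 low-ratio genes was not tested.

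**Figure D4:**
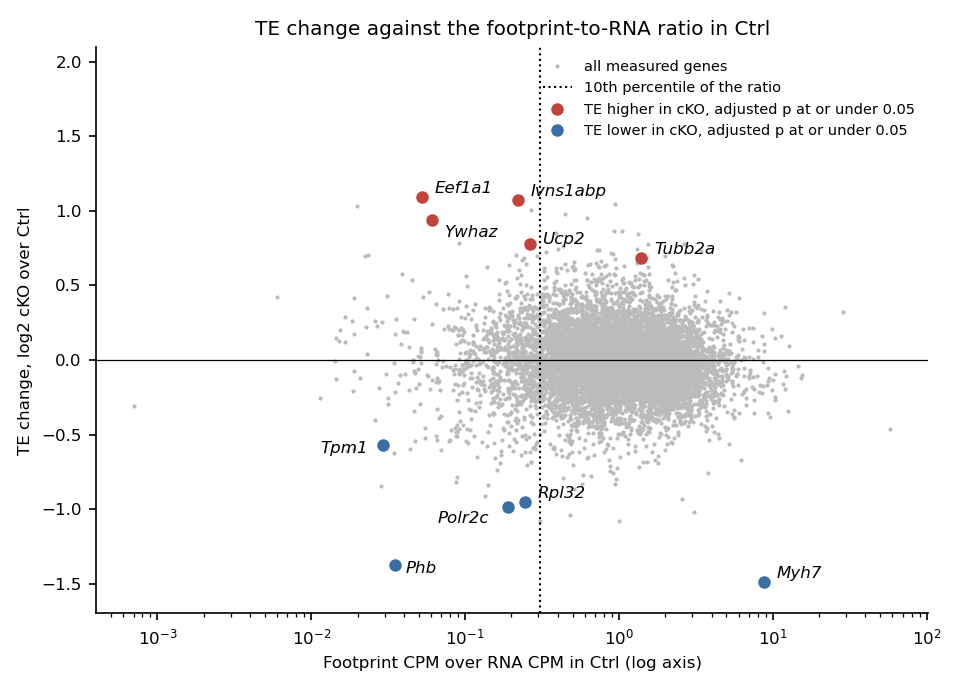
Each point is a gene, with its footprint CPM over RNA CPM in Ctrl on a log axis and its TE change, log2 cKO over Ctrl, on the vertical axis; the dotted line is the 10th percentile of the ratio, 0.309. Of the 10 coloured genes, 8 lie left of the line, and Tubb2a and Myh7 lie right of it.

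The genes next in order did not pass the main test, and are given as values. Towards a higher TE these were Ptp4a2 (0.71, adjusted p = 0.0873), Asap2 (0.63, 0.0873), Slmap (1.03, 0.116), Rps6ka2 (0.62, 0.129), Pnrc2 (0.63, 0.129), Farsa (0.57, 0.129) and Sh3bp5l (0.60, 0.129). Farsa, a subunit of cytosolic phenylalanyl-tRNA synthetase, had 17.5 and 18.5 RNA CPM in cKO against 15.8 and 17.7 in Ctrl, and 82.3 and 83.9 footprint CPM in cKO against 51.1 and 52.5 in Ctrl. Slmap, a protein of the sarcolemma and the centrosome, had 7.0 and 4.79 footprint CPM in cKO against 2.47 and 1.88 in Ctrl on its longest frame of 821 codons, and 15.6 and 9.95 against 9.41 and 10.2 on a frame of 790 codons. With the frame that held the most footprints, the TE change turned to −0.62 for Ptp4a2, −0.060 for Slmap and −0.063 for Pnrc2. None of these passed the test (adjusted p from 0.104 to 0.952). For Slmap this was the frame of 790 codons. In Ptp4a2 footprints changed by −0.89 on an upstream frame of 39 codons, while they rose on its longest frame, of 167 codons. The frame with the most footprints can be an upstream one. The turned sign of Ptp4a2 and Pnrc2 therefore need not be that of a coding sequence.

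Towards a lower TE the next genes were Hist1h1c (−0.64, adjusted p = 0.0509), Hist1h2be (−1.02, 0.0789), Ubap1 (−0.65, 0.0789), Osgepl1 (−0.72, 0.0851), Mrpl13 (−0.56, 0.0851), Phb2 (−0.47, 0.0851) and Pitpnm2 (−0.64, 0.0873). RNA of both histone genes rose, while their footprint libraries overlapped between the genotypes. Hist1h1c, a linker histone, had 104 RNA CPM in both cKO libraries against 65.6 and 64.3 in Ctrl, and 28.3 and 29.2 footprint CPM in cKO against 26.0 and 29.8 in Ctrl. Hist1h2be, an H2B histone, had 9.33 and 8.76 RNA CPM in cKO against 4.66 and 4.27 in Ctrl, and 13.2 and 14.4 footprint CPM in cKO against 13.7 and 14.0 in Ctrl. Histone genes of a class are near-identical in sequence, so these counts are uncertain. Osgepl1, the mitochondrial enzyme that makes N6-threonylcarbamoyladenosine on tRNAs, had 30.3 and 29.3 RNA CPM in cKO against 26.6 and 26.4 in Ctrl, and 23.4 and 25.8 footprint CPM in cKO against 39.1 and 33.2 in Ctrl.

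Lists of genes for mitochondria, other than the mitochondrial aminoacyl-tRNA synthetases, had TE medians below that of all genes (−0.014). So did other lists: glycolysis had a median of −0.11, with 13 of 16 measured genes below 0 and 3 lower and 1 higher at an unadjusted p under 0.05, and chaperones of the endoplasmic reticulum had −0.09, with 15 of 18 below 0 and 2 lower and 0 higher. Of 74 measured mitochondrial ribosomal proteins, 51 were below 0, the median was −0.10, and 15 were lower and 1 higher at an unadjusted p under 0.05, beside 5.84% lower and 4.22% higher over all genes. None passed the adjusted test. The share of all measured genes below 0 is not given here, so the counts of genes below 0 in the lists lack that background. Mrpl13, of the large mitochondrial subunit, had 65.3 and 58.3 RNA CPM in cKO against 47.4 and 48.7 in Ctrl, and 83.4 and 88.6 footprint CPM in cKO against 100 and 97.3 in Ctrl. Its RNA rose (0.36, adjusted p = 0.00791) and its footprint change of −0.20 did not pass the test (adjusted p = 0.0644). Mrps7, of the small subunit, had 58.4 and 55.8 RNA CPM in cKO against 57.2 and 56.3 in Ctrl, and 66.1 and 66.4 footprint CPM in cKO against 88.7 and 92.1 in Ctrl. Its TE change was −0.46 (adjusted p = 0.129). Mrpl51 had a TE change of −0.40 (adjusted p = 0.177).

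The nuclear subunits of complex I (36 measured) had a median of −0.13. At an unadjusted p under 0.05, 8 were lower and 2 higher, beside 5.84% lower and 4.22% higher over all genes. Complexes III, IV and V (37 measured) had a median of −0.09, with 6 lower and 2 higher. Of the complex I subunits, Ndufc1 was on the other side of 0 from its list's median, with 130 and 106 RNA CPM in cKO against 98.6 and 79.1 in Ctrl, and 953 and 942 footprint CPM in cKO against 531 and 534 in Ctrl, a TE change of 0.42 (adjusted p = 0.333). Ndufb2 was on the same side, with 14.5 and 15.9 RNA CPM in cKO against 9.70 and 10.7 in Ctrl. It had 699 and 574 footprint CPM in cKO against 606 and 577 in Ctrl, a TE change of −0.46 (adjusted p = 0.349). Its ratio of footprint CPM to RNA CPM in Ctrl was 57.9, against a 90th percentile of 2.54 over all measured genes. Whether its RNA counts are complete was not tested. Of the 13 mRNAs of the mitochondrial genome 5 were measured, with a median of −0.29, and 1 of them was lower at an unadjusted p under 0.05. Over the alternative fits this median ran from −0.56 to 0.05 and the number lower from 1 to 5, so its sign was not fixed. The 1 gene was mt-Nd1, a complex I subunit counted on a frame of 90 codons. It had 20959 and 19869 RNA CPM in cKO against 22307 and 22883 in Ctrl, and 1641 and 2170 footprint CPM in cKO against 3295 and 2988 in Ctrl (TE change −0.58, adjusted p = 0.157). The counted frames of mt-Nd2, mt-Co1 and mt-Cytb had 12, 42 and 97 codons. The values of this list therefore need not stand for whole coding sequences.

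Genes of fuel oxidation lay mostly below 0, and the median of all measured genes was also below 0, at −0.014. Of 27 measured genes for pyruvate entry and the citric acid cycle, 24 were below 0, the median was −0.11, and 6 were lower and 0 higher at an unadjusted p under 0.05. Over all measured genes, 5.84% were lower and 4.22% higher at that p. Sdhb, the iron-sulfur subunit of succinate dehydrogenase, had 655 and 602 RNA CPM in cKO against 721 and 715 in Ctrl, and 1488 and 1388 footprint CPM in cKO against 2136 and 2241 in Ctrl. Its footprints fell by 0.61 (adjusted p = 9.26e-06), and its TE change was −0.41 (adjusted p = 0.135). Of 29 measured genes of fatty acid uptake and oxidation, 25 were below 0, the median was −0.11, and 4 were lower and 0 higher. Hadh, a dehydrogenase of fatty acid beta-oxidation, had 616 and 614 RNA CPM in cKO against 618 and 642 in Ctrl, and 787 and 775 footprint CPM in cKO against 1055 and 992 in Ctrl (TE change −0.36, adjusted p = 0.172). Echs1, the enoyl-CoA hydratase of the same pathway, fell in RNA (−0.42, adjusted p = 9.92e-04) and further in footprints (−0.75, adjusted p = 1.73e-06), with a TE change of −0.33 (adjusted p = 0.272). Branched-chain amino acid catabolism (19 measured) had a median of −0.06, and mitochondrial chaperones and proteases (19 measured, Phb among them) had −0.10, with 4 lower. The mitochondrial aminoacyl-tRNA synthetases (17 measured) had a median of 0.01 and no gene at an unadjusted p under 0.05.

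Together the 8 lists of nuclear genes for mitochondria, joined after their values were seen, held 258 measured genes. Of these, 188 were below 0. The median of all measured genes was also below 0, at −0.014, and their share below 0 is not given here. At an unadjusted p under 0.05, 44 were lower (17.1%) and 5 higher (1.94%), beside 5.84% lower and 4.22% higher over all genes. The median RNA and footprint changes of the 258 genes were −0.05 and −0.18. The median TE change was −0.10, against −0.01 for the other measured genes. The median of the mitochondrial ribosomal proteins ran from −0.16 to −0.06 over the alternative fits, and the number of them lower at an unadjusted p under 0.05 from 7 to 16. For complex I the median ran from −0.20 to −0.01 and the number lower from 2 to 12. Several measures moved with these lists. Their frames were shorter, with a median of 278 codons against 480 for the other genes. Over 10 bins of frame length the median TE change was −0.033 in the shortest bin (12 to 185 codons) and 0.019 in the longest (1228 to 33467 codons). It was −0.036 at 261 to 329 codons and lowest, −0.038, at 399 to 475 codons. At an unadjusted p under 0.05, 103 genes were lower and 54 higher in the shortest bin. In the longest bin 32 were lower and 53 higher, and at 261 to 329 codons 83 were lower and 25 higher. The 9 measured cardiomyocyte markers had a median TE change of −0.15, and their summed RNA was lower in cKO, as given above. The part of frame length and of cell composition in the mitochondrial values was not tested. Their median footprint-to-RNA ratio in Ctrl was 2.21, against 0.971 for the other genes, and 18 of the 258 genes and 4 of the 44 lower ones lay at or below the 10th percentile of all genes.

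**Figure D5:**
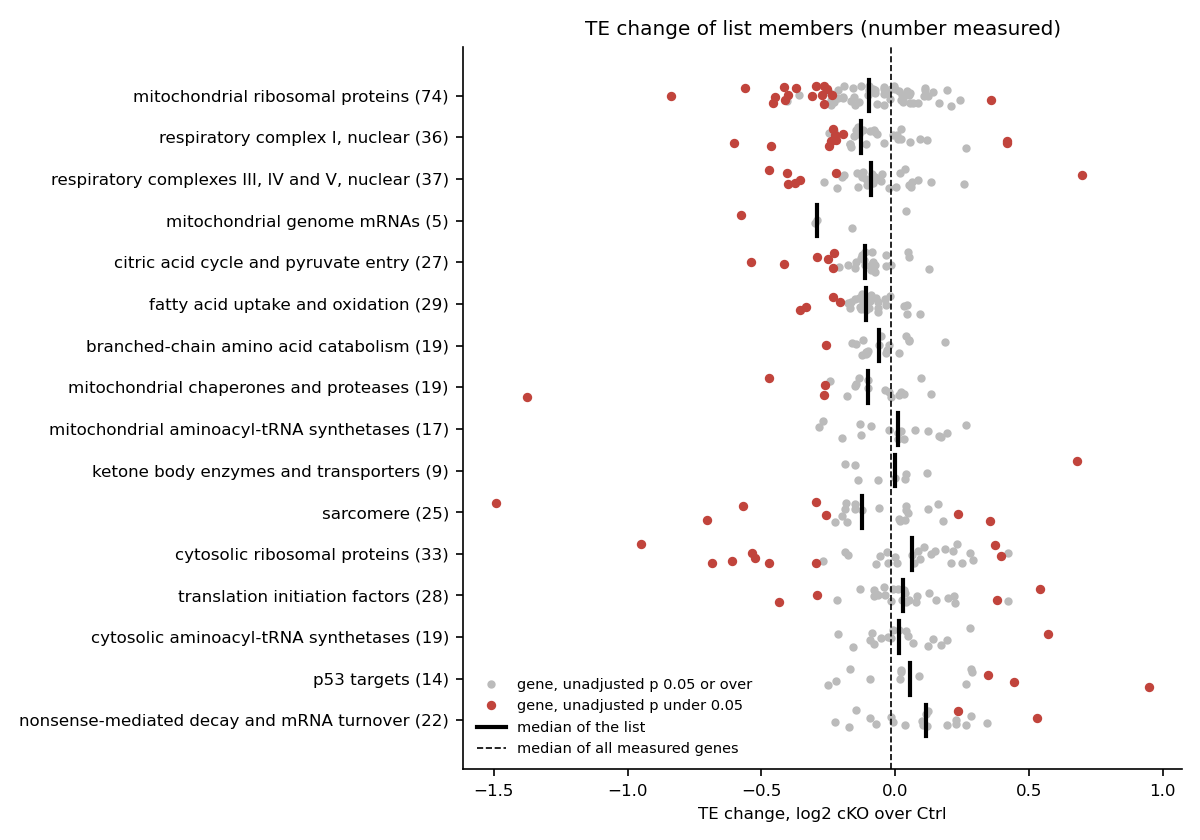
TE change, log2 cKO over Ctrl, of every measured gene in 16 lists, with genes at an unadjusted p under 0.05 in red, a black bar at the median of each list and a dashed line at the median of all measured genes, −0.014. The bars of the mitochondrial lists lie left of the dashed line, other than that of the mitochondrial aminoacyl-tRNA synthetases, and the bar of nonsense-mediated decay lies right of it at 0.12.

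Lists of the translation machinery had TE medians on both sides of 0. Of the 79 cytosolic ribosomal proteins, 33 were measured, with a median TE change of 0.06. At an unadjusted p under 0.05, 2 were higher and 7 lower, beside 4.22% higher and 5.84% lower over all genes. Their median RNA change was 0.30 and their median footprint change 0.37. Rpl41, counted on a frame of 25 codons, had a TE change of −0.68 (adjusted p = 0.281). Ribosomal protein genes have many processed pseudogenes, and the median of the list ran from −0.03 to 0.16 over the alternative fits, so its sign was not fixed. Other mRNAs with a 5′ terminal oligopyrimidine tract, 17 measured, had a median of 0.02. They held Eef1a1, whose TE rose, and Tpt1, the growth-related protein TCTP, with a TE change of −0.54 (adjusted p = 0.267). Initiation factors (28 measured) had a median of 0.03. Among them Eif2s2, the beta subunit of eIF2, had 40.1 and 35.5 RNA CPM in cKO against 38.2 and 36.2 in Ctrl, and 66.8 and 74.7 footprint CPM in cKO against 43.8 and 51.7 in Ctrl (TE change 0.54, adjusted p = 0.193). Elongation and release factors (14 measured) had a median of −0.12 and none at an unadjusted p under 0.05. The cytosolic aminoacyl-tRNA synthetases (19 measured, Farsa among them) and the tRNA modification enzymes (30 measured) both had a median of 0.01. Genes of nonsense-mediated decay and mRNA turnover (22 measured) had a median of 0.12, with 15 above 0 and 2 higher at an unadjusted p under 0.05.

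Ketone body genes had a median TE change of 0.00 over 9 measured genes. For ketone body use, Oxct1 had a TE change of −0.002 (95% interval −0.19 to 0.19), Acat1 of −0.15 (−0.34 to 0.04) and Bdh1 of 0.12 (−0.29 to 0.53). The transporters Slc16a1 and Slc16a7 had −0.065 and 0.04. Aacs, the cytosolic acetoacetyl-CoA synthetase, was the one gene of the list at an unadjusted p under 0.05. It had 6.26 and 5.47 RNA CPM in cKO against 5.36 and 5.28 in Ctrl, and 14.4 and 10.9 footprint CPM in cKO against 6.85 and 7.45 in Ctrl, a TE change of 0.68 (95% interval 0.15 to 1.21, adjusted p = 0.402). Acss1, the mitochondrial acetyl-CoA synthetase, had −0.14. None of the 9 passed the adjusted test. Bdh2 was below 50 counts in every library.

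Genes of the sarcomere (25 measured) had a median TE change of −0.12. Of these, 2 were lower past the adjusted test, Myh7 and Tpm1, beside 0.0528% lower over all genes. At an unadjusted p under 0.05, 5 were lower and 2 higher, beside 5.84% lower and 4.22% higher over all genes. Tpm2, the beta-tropomyosin, had 31.4 and 29.0 RNA CPM in cKO against 25.3 and 25 in Ctrl, and 9.32 and 9.36 footprint CPM in cKO against 12.7 and 12.6 in Ctrl (TE change −0.70, adjusted p = 0.118). Tnnc1, cardiac troponin C, was on the other side, with 1648 and 1500 RNA CPM in cKO against 1058 and 998 in Ctrl, and 25822 and 22397 footprint CPM in cKO against 12491 and 12169 in Ctrl (TE change 0.35, adjusted p = 0.317). Of 10 measured natriuretic and fetal stress genes, 9 rose in RNA, beside 7.69% of all genes, and 9 in footprints, beside 13.2%. The medians were 1.55 for RNA, 1.5 for footprints and −0.01 for TE. Nppb, the B-type natriuretic peptide, had 319 and 312 RNA CPM in cKO against 55.3 and 46.3 in Ctrl, and 752 and 914 footprint CPM in cKO against 179 and 158 in Ctrl (TE change −0.33, adjusted p = 0.446).

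Of 14 measured p53 targets, 7 rose in RNA, beside 7.69% of all genes, and 12 in footprints, beside 13.2%. They had a median RNA change of 0.37, a median footprint change of 0.63 and a median TE change of 0.06. In TE, 3 were higher and 0 lower at an unadjusted p under 0.05, beside 4.22% higher and 5.84% lower over all genes. Phlda3, a p53-induced repressor of Akt signalling, rose in RNA by 2.06 (adjusted p = 8.91e-10) and in footprints by 2.41 (adjusted p = 8.63e-11), with a TE change of 0.35 (adjusted p = 0.408). Targets of the stress transcription factor Atf4 (13 measured) had a median TE change of 0.02. Slc7a5, the large neutral amino acid transporter, had 19.1 and 19.6 RNA CPM in cKO against 9.06 and 7.66 in Ctrl, and 33.1 and 31.7 footprint CPM in cKO against 9.51 and 9.94 in Ctrl (TE change 0.53, adjusted p = 0.331). Ddit3, which encodes the stress factor CHOP, was counted on its longest listed frame, of 80 codons. Whether this frame covers the whole coding sequence was not tested. Ddit3 had 20.9 and 18.4 RNA CPM in cKO against 9.45 and 8.04 in Ctrl. On that frame it had 10.7 and 10.2 footprint CPM in cKO against 3.91 and 2.70 in Ctrl (TE change 0.52, adjusted p = 0.481). The genes with upstream frames known from the integrated stress response (10 measured, Ddit3 among them) had a median of 0.02. Of these, 2 were higher and 1 lower at an unadjusted p under 0.05, beside the same 4.22% and 5.84% over all genes. Cytosolic heat shock proteins (22 measured) had −0.01, and NRF2 antioxidant genes (21 measured) had 0.01. The proteasome list (29 measured) had a median of −0.08, and against it Psma5 had 57.2 and 54.3 RNA CPM in cKO against 42.7 and 39.8 in Ctrl, with 69.3 and 54.8 footprint CPM in cKO against 28.2 and 30.1 in Ctrl (TE change 0.65, adjusted p = 0.129). Markers of the other cell types had medians from −0.05 for fibroblasts to 0.01 for the epicardial and mesothelial genes.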

How the data were processed

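The heart tables the authors deposited hold raw counts, whole numbers with no normalization: RNA reads by gene, and Ribo-seq footprints by open reading frame. The unit was read from the values. The submitters' processing notes list the builds Rnor_6.0 and GRCm38 and the tools Bowtie2, Bowtie, HISAT2, STAR, StringTie, featureCounts, cutadapt and DESeq2; versions, strand setting and which tool made which table are not given in the sources used here. Among 26398 frames, longest frames hold 97.93% of footprints. For 94 measured genes the longest frame is not the one with the most footprints. The H9C2 and tRNA files were not used here.

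TE was the genotype by assay interaction in 1 edgeR quasi-likelihood fit (edgeR 4.0.16, R 4.3.3) over the 8 libraries, with TMM factors and Benjamini-Hochberg adjustment over all 9468 genes; RNA and footprint changes came from the same fit. SE is the absolute log2 change divided by the square root of F. CPM is counts over the TMM-scaled library total of measured genes, times 1e6. Alternatives used limma 3.58.1 and DESeq2 1.42.0. The script was tested on simulated data.

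Named were the 12 largest TE changes per direction past the threshold with no overlap between pairings or, where fewer passed, the smallest unadjusted p up to 12, without predicted gene models, then list genes with the smallest p, Mettl1, Wdr4 and ketone body genes; some genes that this rule names are not reported here. The 45 lists and the genes were chosen with earlier results of these data known. Nppa, Tssc4, Atp2a2, Malat1, the mitochondrial union and the genes named for upstream frames were chosen after their values were seen. Coordinates, overlaps and start codons are RefSeq's (GRCm38.p6).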

Additional observations from a re-analysis of the deposited data

How the results depend on the processing

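The 5 genes with a higher and the 5 with a lower TE stayed within 1.5 times of those counts under relative-log-expression factors, TMM factors within each assay, library totals, filterByExpr, no filter, the frame with most footprints, all frames summed and a 1.5-fold minimum. DESeq2 called 13 higher and 33 lower, limma-voom 3 and 2, at least 200 counts 3 and 1, the block of RNA and Ribo libraries 26 and 40, and the block of the number across genotypes 8 higher; the cause was not tested. The blocked libraries share only a number: deviations of same-numbered RNA and Ribo libraries correlated at 0.13 in cKO and 0.261 in Ctrl, and across genotypes at 0.078 for RNA and 0.034 for Ribo, and the labels tie none of them to a heart. Without 1 replicate, 2 to 8 genes were higher and 0 to 11 lower, from fewer libraries. Of 629 values of 32 genes over the alternatives, 516 kept direction and side, 61 lost the call, 36 gained it and 16 changed sign. Sign changed for Ptp4a2 (−0.623), Slmap (−0.060) and Pnrc2 (−0.063) with the frame with most footprints, for Ptp4a2 (−0.056) and Oxct1 (0.008) with frames summed, and for Oxct1 with TMM within each assay (0.012) and at least 200 counts (0.014). Without 1 replicate, Oxct1 ran from −0.052 to 0.074, Slc16a7 from −0.126 to 0.188, Bdh1 from −0.002 to 0.259 and Slc16a1 from −0.151 to 0.056. With TMM within each assay, 452 genes were higher and 464 lower at an unadjusted p under 0.05. In each group 2 libraries limit precision, and the lone library left after a removal is assumed to vary like the others.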

Other observations

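Atf4, the transcription factor of the integrated stress response, was left out by the count threshold. Its longest listed frame, of 288 codons, had 163 and 138 footprint counts in cKO against 79 and 36 in Ctrl. Whether this frame covers the whole coding sequence was not tested. A listed frame of 59 codons upstream of the longest frame had 3214 and 3063 counts in cKO against 1262 and 1738 in Ctrl. As CPM the upstream frame had 90.7 and 99.9 in cKO against 58.8 and 59.4 in Ctrl. The longest listed frame had 4.6 and 4.5 CPM in cKO against 3.68 and 1.23 in Ctrl. Footprints were higher in both cKO libraries on both frames. The rise was 0.69 on the upstream frame and 0.89 on the longest listed frame (log2 cKO over Ctrl), with no test. These are footprint changes and not TE changes. No RNA value of Atf4 is given here, and the part of RNA in the rise was not tested.

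Malat1, a nuclear non-coding RNA, was listed with a frame of 24 codons. It had 64.0 and 82.7 RNA CPM in cKO against 88.0 and 68.0 in Ctrl, and 9.74 and 11.6 footprint CPM in cKO against 28.6 and 19.7 in Ctrl. Its TE change was −1.08 (edgeR adjusted p = 0.127). It was chosen after its values were seen.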
